A study of Mus musculus with 15 samples.

Results

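The genes described here are 10 genes of osteoblasts and osteocytes, the cells that build and maintain bone: Sp7, Ibsp, Bglap, Bglap2, Spp1, Ifitm5, Phex, Dmp1, Mepe and Sost. They were chosen by gene symbol, and each matched 1 row of the 18536 genes in the deposited table. All 10 had a normalized read count of at least 10 in at least 3 libraries and so were among the 16723 genes tested. RNA was sequenced from auditory nerve dissected out of the mouse cochlea at postnatal day 3 (P3), P7, P14 and P21 and in adults, with 3 libraries per age and 15 in all. Per the labels, each library came from both cochleae of 1 mouse, and RNA preparations that showed degradation or contamination were left out. The labels name no strain, allele, treatment or sex and give no age in days for the adults. Titles of the adult libraries begin with CTRL, while those of the other ages begin with the age. As far as the labels say, the groups otherwise differ by age. The nerve lies inside the bony core of the cochlea, and the labels do not give the amount of bone in each dissected piece. In a bulk sample, fewer cells of a type and less RNA per cell cannot be told apart, which holds for every change below.

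Osteoblasts secrete a collagen matrix, add acidic proteins that bind calcium, and supply the phosphate with which the matrix mineralizes. Some of them become enclosed in the matrix as osteocytes, which act on bone formation and on phosphate balance through secreted factors. The bone around the mouse cochlea matures during early postnatal life.

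Recovered read totals lay between 35250155 and 42258738 per library, and 3 reads, the smallest count treated as detected, equalled a normalized count between 2.53 and 3.65. All values of the 10 genes were above that floor. The summed level of 5 neuronal markers lay between 33570 and 53196 at P3 and between 313230 and 328413 in adults, and that of 5 Schwann cell markers between 125414 and 662858 over all libraries, so markers of nerve tissue were detected at every age. In 4 libraries the Y-linked gene Eif2s3y was at 0 or near it (P14 replicate 1, P21 replicates 1 and 2, adult replicate 3) while Xist was high, so a sex difference and age are partly joined. Leaving them out keeps 1 library at P21 (replicate 3), 2 at P14 and 2 in adults. Comparisons with P21 in that fit then rest on a single P21 library, which is assumed to vary like the libraries of other ages. Calls of the 10 genes that change in that fit are given below, with both log2 fold changes or with a range over several fits.

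Of the 10 genes, 9 were lower in adults than at P3, by between 2.55-fold for Sost and 136-fold for Ifitm5, and Spp1 was 1.41-fold higher. The 9 that fell had their highest means at different ages. Bglap, Bglap2, Ibsp and Ifitm5 had their highest mean at P7, Dmp1 and Mepe at P14, and Sp7, Phex and Sost at P3. The P7 level was called higher than that of P3 for Bglap, Bglap2 and Ifitm5, but not for Ibsp (limma, adjusted p = 0.105). No change from P3 to P7 was called for Dmp1, Mepe, Sp7, Phex and Sost, nor from P7 to P14 for Dmp1 and Mepe. For these genes the age of the highest mean is not resolved. Spp1 had its lowest mean at P7 and its highest at P21. All 10 passed the adult against P3 test (limma, Benjamini-Hochberg adjusted p under 0.05), where 68.7% of all genes tested passed, 34.3% as lower and 34.4% as higher. The median log2 fold change was -4.16 over the 10 genes and -0.01 over all genes tested.

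**Figure D1:**
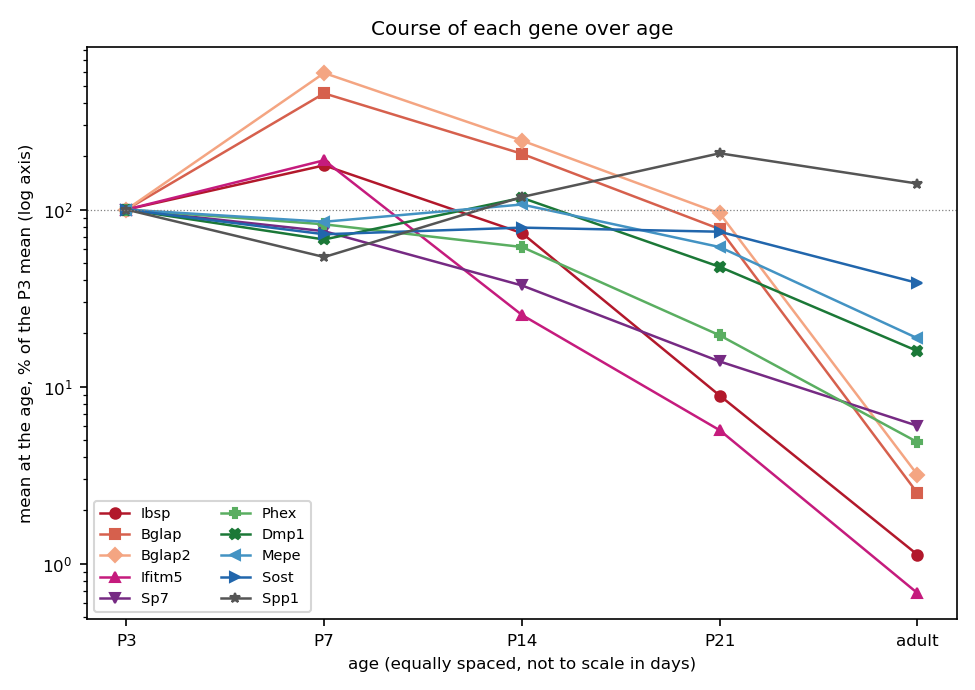
Mean normalized read count of each gene at each age (3 libraries) as a percentage of its own mean at P3, on a log axis, with ages equally spaced. Bglap2 and Bglap reach 591% and 453% at P7 and fall to 3.18% and 2.51% in adults, Ifitm5 falls to 0.683%, and Spp1 ends at 140%.

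The genes lie on 6 chromosomes of mm10. Dmp1 (chr5:104202617-104214102), Ibsp (chr5:104299287-104311472), Mepe (chr5:104325329-104338611) and Spp1 (chr5:104435111-104441053) are next to each other on the + strand within 238 kb, a cluster of genes for acidic secreted phosphoproteins. Bglap (chr3:88383495-88384466) and Bglap2 (chr3:88377736-88378701) are neighbours on the - strand. Sp7 (chr15:102356603-102366968), Ifitm5 (chr7:140948962-140950239), Sost (chr11:101962458-101967015) and Phex (chrX:157162075-157415286) stand alone on the - strand of theirs. All are protein-coding genes.

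The promoters of the 4 clustered genes and of Bglap are shown because neighbours in 1 cluster took different courses. Each sequence runs 5′ to 3′ from 250 bases before to 50 bases after the gene's start, from RefSeq on GRCm38.p6 (mm10). They cover chr3:88384417-88384716 on the - strand for Bglap and, on the + strand, chr5:104202367-104202666 for Dmp1, chr5:104299037-104299336 for Ibsp, chr5:104325079-104325378 for Mepe and chr5:104434861-104435160 for Spp1. Capitals mark ACCACA, a core of sites bound by Runx factors, and CCAAT, on either strand (as TGTGGT or ATTGG on the strand shown).
Bglap: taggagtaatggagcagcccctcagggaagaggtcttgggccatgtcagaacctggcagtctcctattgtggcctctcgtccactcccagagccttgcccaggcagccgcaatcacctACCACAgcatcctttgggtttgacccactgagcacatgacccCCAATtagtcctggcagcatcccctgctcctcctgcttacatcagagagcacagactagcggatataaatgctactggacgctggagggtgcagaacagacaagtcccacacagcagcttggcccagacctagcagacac
Ibsp: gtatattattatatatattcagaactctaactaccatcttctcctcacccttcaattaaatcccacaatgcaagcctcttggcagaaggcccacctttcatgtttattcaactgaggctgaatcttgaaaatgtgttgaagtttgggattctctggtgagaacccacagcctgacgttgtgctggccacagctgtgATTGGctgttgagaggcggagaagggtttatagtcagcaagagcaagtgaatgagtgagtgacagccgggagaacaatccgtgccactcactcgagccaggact
Dmp1: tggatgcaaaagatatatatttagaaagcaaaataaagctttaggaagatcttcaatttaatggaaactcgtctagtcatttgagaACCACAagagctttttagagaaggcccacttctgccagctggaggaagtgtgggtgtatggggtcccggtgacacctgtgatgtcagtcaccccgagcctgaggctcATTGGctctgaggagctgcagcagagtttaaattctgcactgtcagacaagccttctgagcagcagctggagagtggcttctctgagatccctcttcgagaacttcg
Mepe: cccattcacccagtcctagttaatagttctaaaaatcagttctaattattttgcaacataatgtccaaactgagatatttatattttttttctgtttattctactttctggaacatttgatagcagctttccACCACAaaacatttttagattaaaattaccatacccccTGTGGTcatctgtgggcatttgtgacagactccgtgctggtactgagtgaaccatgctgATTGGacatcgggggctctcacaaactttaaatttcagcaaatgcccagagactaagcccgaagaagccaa
Spp1: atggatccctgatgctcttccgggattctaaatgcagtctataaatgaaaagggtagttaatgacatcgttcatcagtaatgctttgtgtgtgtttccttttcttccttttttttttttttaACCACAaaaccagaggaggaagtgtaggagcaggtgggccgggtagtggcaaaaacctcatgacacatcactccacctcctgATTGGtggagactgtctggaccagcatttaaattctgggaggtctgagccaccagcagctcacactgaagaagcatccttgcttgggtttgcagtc
RefSeq gave a promoter at the start of 8 of the 10 genes and none for Sp7 and Bglap2. ACCACA, on either strand, was in 4 of these 8 (Bglap, Dmp1, Mepe and Spp1, with 2 matches in Mepe) and in 16.8% of 32851 promoters of the same length. CCAAT was in 6 of the 8, all 5 shown here among them, and in 37.4% of all promoters. Counted from the gene's start to the first base of the match, CCAAT lay at -90 in Bglap, -57 in Dmp1, -54 in Ibsp, -46 in Spp1 and -21 in Mepe. TATAAA and TTTAAA, also searched on both strands, were in 4 and 5 of the 8 and in 13.6% and 13.2% of all promoters. Mepe and Spp1 each held both. TATAAA began at -27 in Bglap and -28 in Ibsp, while TTTAAA began at -31 in Dmp1, -30 in Sost and -20 in Spp1. Other TATAAA matches began at -173 in Mepe and -211 in Spp1, and other TTTAAA matches at -56 in Phex and 5 in Mepe. Ibsp, which changed 158-fold between its highest and lowest mean, and Spp1, which changed 3.85-fold, both hold a CCAAT match.

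**Figure D2:**
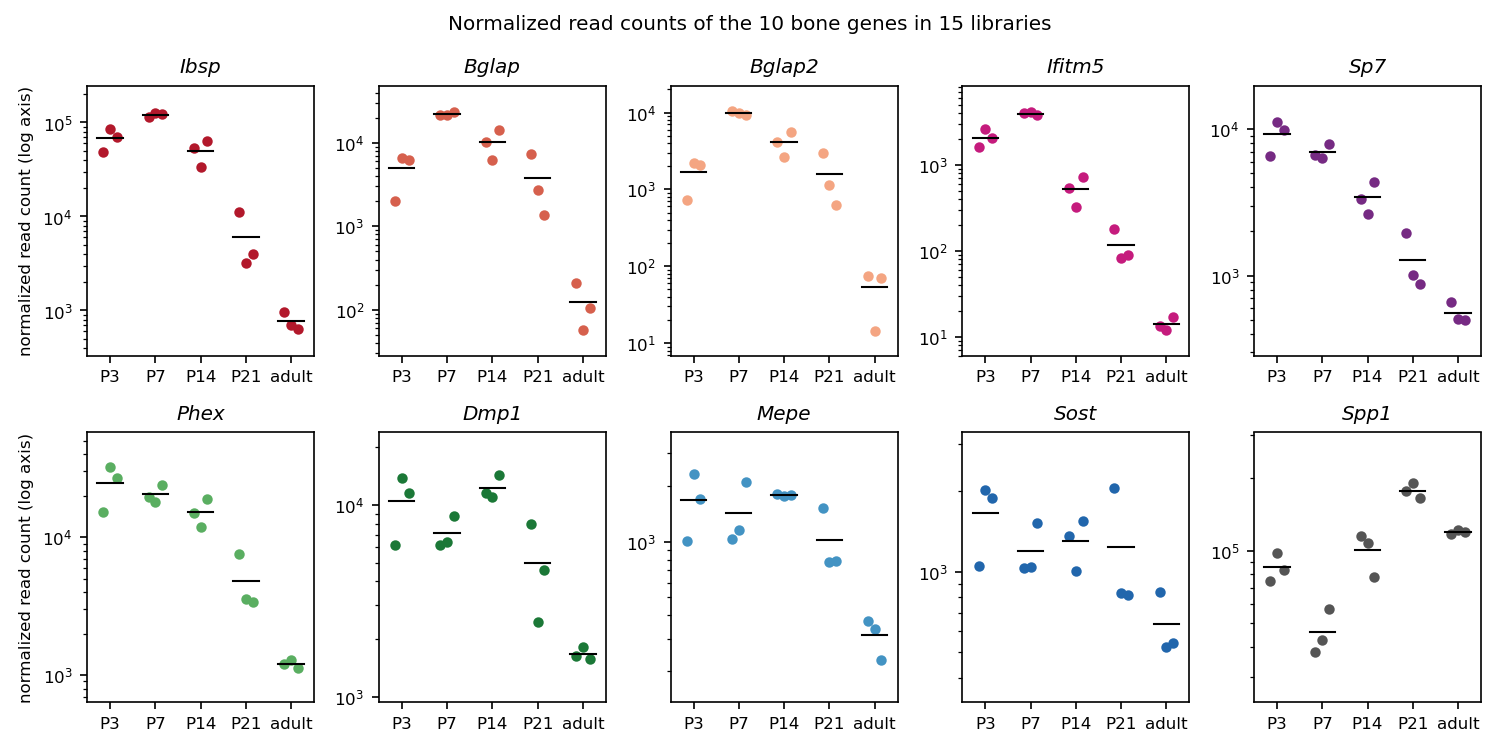
Normalized read count of each gene in each of the 15 libraries (points, 3 per age) with the mean of the 3 (line), on log axes that differ between panels. The 3 P7 points of Ibsp, Bglap and Ifitm5 nearly coincide, while 1 of the 3 P21 points stands above the other two in every gene but Spp1.

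Sp7, or osterix, is the transcription factor that osteoblasts need to form. Its normalized counts were 6551, 11235 and 9899.8 at P3, 6632, 6382 and 7892 at P7, 3325, 2629 and 4371 at P14, 1949.9, 1011 and 883 at P21, and 664, 504 and 496 in adults. The P3 and P7 libraries overlapped, and from P7 on each age lay wholly below the one before. The change from P3 to P7 was not called (log2 fold change -0.38 ± 0.28 (SE); limma, adjusted p = 0.340). Sp7 then fell at each of the 3 later steps, with log2 fold changes of -1.04, -1.49 and -1.13 (limma, adjusted p = 0.00767, 0.00651 and 0.00564). With the 4 libraries low in Eif2s3y left out, and so 1 library at P21, the adult step was -0.61 and not called (limma, adjusted p = 0.236).

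Ibsp codes for bone sialoprotein, an acidic matrix protein that starts hydroxyapatite crystals and binds integrins. Its counts were 48158, 84981 and 70819.5 at P3, 115625, 125222 and 121714 at P7, 52955, 33679 and 63644 at P14, 11036, 3191 and 3951 at P21, and 953, 700.005 and 642 in adults. All P7 libraries were above all others, and ages after P7 did not overlap. The rise to P7 was 0.87 ± 0.38 on the log2 scale and was not called (limma, adjusted p = 0.105). It was called when only both ages were fitted (limma, adjusted p = 0.0119), without P21 replicate 1 (0.0190) and without the 4 libraries low in Eif2s3y (0.0267), each with the same log2 fold change. Ibsp fell at the next 3 steps, with log2 fold changes of -1.32, -3.22 and -2.78 (limma, adjusted p = 0.0115, 0.000410 and 0.000206). The P14 against P7 call was lost without P14 replicate 2 (log2 fold change -1.06; limma, adjusted p = 0.0580).

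Bglap and Bglap2 code for osteocalcin, a small protein of mature osteoblasts that binds calcium through vitamin K-dependent residues. Bglap counts were 2024, 6504 and 6267 at P3, 21585, 21839.6 and 23637 at P7, 10329, 6180.3 and 14057 at P14, 7394, 2713 and 1382 at P21, and 208, 56.9 and 106 in adults. Bglap2 counts were 719.7, 2194 and 2104 at P3, 10622, 9748 and 9266 at P7, 4188, 2617 and 5508 at P14, 3004, 1143 and 625 at P21, and 74.9, 14.2 and 70.5 in adults. In both genes the P7 libraries were highest, the P14 and P21 libraries overlapped, and the adults were far below all others. Both rose from P3 to P7, Bglap by 2.36 ± 0.61 and Bglap2 by 2.72 ± 0.65 on the log2 scale (limma, adjusted p = 0.0118 and 0.00817). Neither step from P7 to P14 to P21 was called, with log2 fold changes between -1.67 and -1.21 (limma, adjusted p between 0.104 and 0.142). The P7 and P14 libraries did not overlap for either gene, and with only both ages in the fit both were called lower at P14 with the same log2 fold changes (limma, adjusted p = 0.0114 for Bglap and 0.00530 for Bglap2). Bglap was called lower at P21 than at P14 without P21 replicate 1 (log2 fold change -2.32; limma, adjusted p = 0.0271). Against the 1 P21 library left without the 4 low in Eif2s3y, the values were -2.75 for Bglap and -2.60 for Bglap2, not called (limma, adjusted p = 0.102 and 0.138).

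From P21 to adult both fell, with log2 fold changes of -4.80 for Bglap and -4.89 for Bglap2 (limma, adjusted p = 0.000141 and 0.000179). These are the largest falls of the 10 genes at that step, and their size depends on single libraries. Without P21 replicate 1 they were -4.15 and -4.28, without the 4 libraries low in Eif2s3y (1 left at P21) -3.65 and -4.20, and for Bglap2 without adult replicate 2 -4.13, all still called. Leaving out adult replicate 2 also moved Bglap2 in adults against P3 from -5.10 to -4.34. The pair of genes is nearly alike in sequence: 51.3% of the stretches of 50 bases in Bglap exons and 69.2% of those in Bglap2 exons occur in the other gene, so how reads were divided between them is uncertain. Bglap2 was 33.6% to 49.2% of Bglap in each library from P3 to P21 and 25.0% to 66.7% in adults. The third gene of the locus, Bglap3, stayed between 3.77 and 146 in every library.

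Spp1 codes for osteopontin, an acidic phosphoprotein of bone that is also made by cells outside bone, macrophages among them. Its counts were 75125, 97749.7 and 82752 at P3, 38178, 42437 and 57326 at P7, 115173, 108006 and 77947 at P14, 176126, 189855 and 165491 at P21, and 117619, 121170 and 119677 in adults. The P7 libraries lay below all others and the P21 libraries above all others. Spp1 fell from P3 to P7, rose to P14 and to P21, and fell to adults, with log2 fold changes of -0.90, 1.13, 0.84 and -0.57, each ± 0.16 (limma, adjusted p = 0.00150, 7.96e-05, 0.00742 and 0.0119). The last pair of calls was lost without the 4 libraries low in Eif2s3y, with 1 library left at P21 (log2 fold changes 0.85 and -0.47; limma, adjusted p = 0.0946 and 0.211). The rise from P3 to adults, 0.50 ± 0.16, was lost without P3 replicate 1 (0.41; limma, adjusted p = 0.0631). The summed level of 7 macrophage markers, none at 0, was 20934 to 27955 at P3, 14269 to 16459 at P7, 8751 to 13133 at P14, 6438 to 7541 at P21 and 4408 to 5812 in adults. The part of macrophages, or of any other cell type, in the course of Spp1 was not tested.

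Spp1 therefore carried a changing share of the RNA of the 10 genes. Together they made up 0.598% to 0.683% of the normalized counts in P7 libraries and 0.289% to 0.291% in adults. Spp1 was 17.02% to 22.04% of that sum at P7, 80.5% to 92.3% at P21 and 95.2% to 96.2% in adults. Without Spp1, the other 9 genes went from 0.496% to 0.532% of the counts at P7 to 0.0112% to 0.0140% in adults. Per kilobase of exon, the mean level of Ibsp at P7, 58439.9 normalized counts, was the highest of the 10, ahead of Bglap at 36171, Spp1 at 27901 and Bglap2 at 20973. In adults, Spp1 was at 72505 per kilobase and the next, Dmp1, at 604.

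Ifitm5, or BRIL, is a membrane protein of mineralizing osteoblasts. Its counts were 1619.8, 2577 and 2037 at P3, 3970.4, 4113 and 3755 at P7, 541, 324 and 719 at P14, 182, 83.3 and 89.0 at P21, and 13.5, 12.03 and 17.01 in adults. No age overlapped another. Ifitm5 rose by 0.95 ± 0.31 on the log2 scale to P7 (limma, adjusted p = 0.0360), a call that was lost in 5 of the 6 fits that left out a P3 or P7 library (log2 fold changes 0.78 to 0.99; limma, adjusted p between 0.0707 and 0.115). It then fell at each step, with log2 fold changes of -2.97 to P14, -2.17 to P21 and -2.89 to adults (limma, adjusted p = 4.90e-06, 0.00118 and 6.73e-05). Its fall from P7 to P14 was the largest of the 10 genes at that step. Ibsp changed there by -1.32, and Bglap and Bglap2 by -1.21 and -1.33, of which only the change of Ibsp was called.

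Phex is a membrane peptidase of osteoblasts and osteocytes whose loss causes X-linked hypophosphatemia. Its counts were 15334, 32359 and 26759.5 at P3, 19404, 17973 and 24096 at P7, 14920.5, 11938 and 18919 at P14, 7552, 3555 and 3409.7 at P21, and 1209, 1284 and 1125 in adults. The P3, P7 and P14 libraries overlapped, and the changes between them were not called (log2 fold changes -0.22 and -0.44; limma, adjusted p = 0.624 and 0.256). Phex then fell, with log2 fold changes of -1.73 to P21 and -1.90 to adults (limma, adjusted p = 0.00451 and 0.000484). Against the 1 P21 library left without the 4 low in Eif2s3y, they were -2.14 and -1.45, both still called.

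Dmp1 and Mepe code for acidic phosphoproteins made mainly by osteocytes, and both act on mineralization and phosphate balance. Dmp1 counts were 6197, 13739 and 11581 at P3, 6196, 6405 and 8763 at P7, 11514, 10980 and 14241 at P14, 7911, 2460.2 and 4599 at P21, and 1628.5, 1817 and 1565 in adults. Mepe counts were 1004, 2305 and 1694 at P3, 1029, 1156 and 2086 at P7, 1814, 1756 and 1775 at P14, 1512, 778 and 784 at P21, and 373, 338 and 228 in adults. Up to P14 the ages overlapped for Mepe, and for Dmp1 the P14 libraries lay above those of P7. Neither gene was called from P3 to P7 or from P7 to P14 (limma, adjusted p between 0.0809 and 0.662). The P14 against P7 value of Dmp1, 0.79 ± 0.35, was called by DESeq2 (adjusted p = 0.0412). It was also called without P21 replicate 1, without P21 replicate 2 and with only both ages in the fit (limma, adjusted p between 0.00454 and 0.0340). Without the 4 libraries low in Eif2s3y, which leaves 1 library at P21, the log2 fold change was 0.83 and was called too.

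Dmp1 fell by 1.44 ± 0.35 from P14 to P21 on the log2 scale (limma, adjusted p = 0.0226). That call was lost in 5 other fits with log2 fold changes between -1.46 and -1.33, those without P14 replicate 3, without P21 replicate 3, without the 4 libraries low in Eif2s3y (1 left at P21), with only both ages and with the replicate number as a block (limma, adjusted p between 0.0511 and 0.151). Mepe changed by -0.87 ± 0.34 at that step and was not called (limma, adjusted p = 0.126), and was called without P21 replicate 1 (-1.19; limma, adjusted p = 0.0467). From P21 to adults both fell, with log2 fold changes of -1.42 for Dmp1 and -1.66 for Mepe (limma, adjusted p = 0.00551 and 0.00188). The Mepe call was lost without the 4 libraries low in Eif2s3y, with 1 library left at P21 (-1.14; limma, adjusted p = 0.115).

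Sost codes for sclerostin, the secreted Wnt inhibitor of mature osteocytes. Its counts were 1045, 2019 and 1881 at P3, 1035, 1036 and 1518 at P7, 1361, 1004 and 1546 at P14, 2059, 832 and 818 at P21, and 842, 521 and 542 in adults. Neighbouring ages overlapped throughout, and the P21 value of replicate 1 was the highest of all 15. No step between neighbouring ages was called, with the adult step nearest to the threshold (-0.85 ± 0.35; limma, adjusted p = 0.0603). That step was called by edgeR (adjusted p = 0.0404), by DESeq2 (adjusted p = 0.0156) and in 4 of the fits that left out 1 library (limma, adjusted p between 0.0333 and 0.0457). With 1 library left at P21, without the 4 low in Eif2s3y, the value was -0.30 for that step and -0.61 for P21 against P14 in place of -0.20, neither called (limma, adjusted p = 0.651 and 0.453). Sost was lower in adults than at P3 by 1.35 ± 0.35 on the log2 scale (limma, adjusted p = 0.00388). Over all 5 ages jointly it passed in limma (adjusted p = 0.0281), while an exact permutation test over 1401400 divisions of the 15 libraries gave p = 0.0712, two-sided in the sense that any difference between ages counts. For the other 9 genes that exact test gave p between 7.14e-07, the smallest it can give, and 0.00260.

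**Figure D3:**
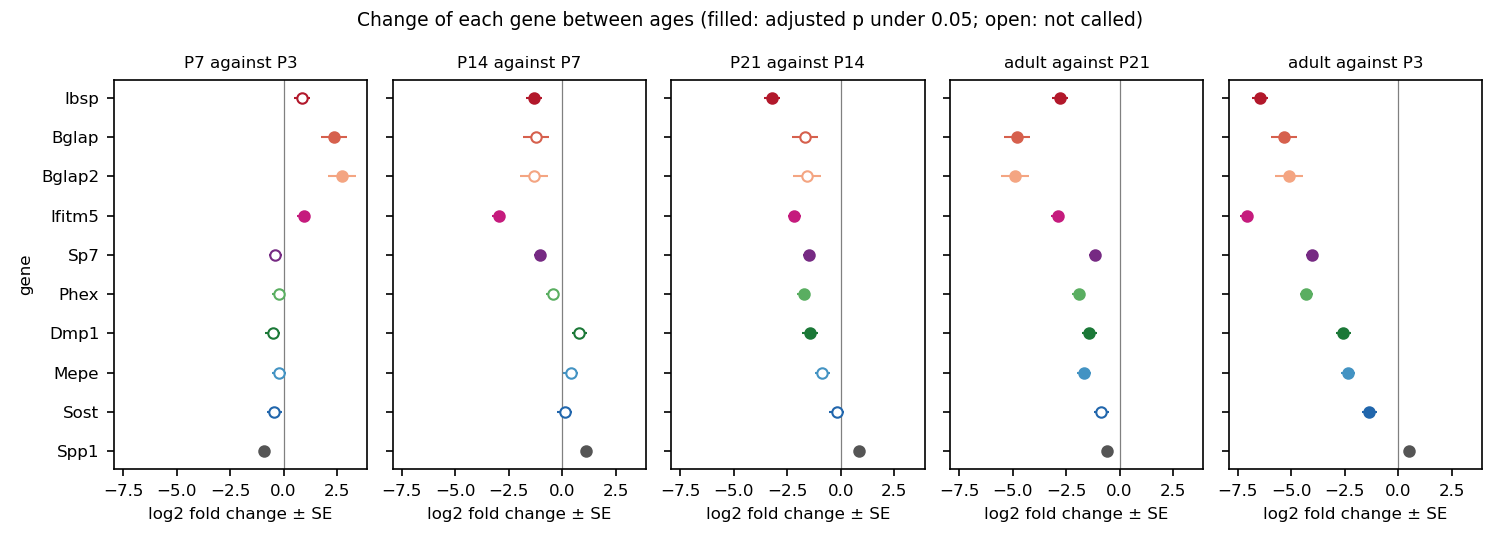
Log2 fold change with its standard error for each gene in 5 comparisons of ages, from 1 limma fit of all 15 libraries. Filled points have an adjusted p under 0.05; all genes but Spp1 lie left of 0 in adults against P3, with Ifitm5 at -7.08 and Sost at -1.35.

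Step by step, 4 of the 10 genes were called at P7 against P3 (Bglap, Bglap2 and Ifitm5 higher, Spp1 lower), where 28.1% of all genes tested were called, 15.4% as higher and 12.8% as lower. The libraries of P3 and P7 did not overlap for 5 of the 10, against 54.2% of all genes. At P14 against P7, 4 were called (Ibsp, Ifitm5 and Sp7 lower, Spp1 higher), where 48.1% of all genes were called, 24.3% as higher and 23.8% as lower, so the share of the 10 was no higher than the background. The libraries did not overlap for 7 of 10 there, against 61.4% of all genes. At P21 against P14, 6 were called (Ibsp, Ifitm5, Phex, Sp7 and Dmp1 lower, Spp1 higher), where 9.29% of all genes were called, 3.29% as higher and 6% as lower. The median log2 fold change at that step was -1.54 over the 10 and 0.00387 over all genes, and the libraries did not overlap for 7 of 10 against 24.4%. At adult against P21, 9 of 10 fell, all but Sost, where 49.4% of all genes were called, 25.4% as higher and 24.1% as lower. The libraries did not overlap for 9 of 10 at that step, against 56.1% of all genes, and for 10 of 10 in adults against P3, against 76.4%. Over all 5 ages jointly 10 of 10 were called, as were 85.4% of all genes.

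The P21 against P14 step rests on how the spread was estimated. With only both ages in the fit, 1 of the 10 genes was called (Ibsp), and 137 of all genes in place of 1553. The log2 fold changes are the same in that fit. Without the 4 libraries low in Eif2s3y, which leaves 1 library at P21, 4 of the 10 and 754 of all genes were called. In that fit the log2 fold changes of Bglap and Bglap2 moved by about 1, as given above, and Sp7 went from -1.49 to -1.94. The 5 genes called lower kept that sign in each alternative.

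Libraries of 1 age differed from each other by a shift that most of the 10 genes shared. At P3, replicate 1 was the lowest of 3 in all 10 genes and replicate 2 the highest in all 10, with median deviations from the age mean of -0.61 and 0.41 on the log2 scale. At P14, replicate 2 was lowest in 9 and replicate 3 highest in 8. At P21, replicate 1 was highest in 9, all but Spp1, with a median deviation of 0.78. The neutrophil sum over 5 markers was also highest in P21 replicate 1, at 13959 against 3952 and 2179, as was the sum over 4 B lymphoid markers, at 599.8 against 268 and 169. At P14 both sums were highest in replicate 1 (neutrophil 5374 against 1290 and 1492, B lymphoid 604 against 166 and 250.04), whereas 8 of the 10 genes were highest in replicate 3. The osteoclast sum was lowest in P3 replicate 1, at 94278 against 162334 and 148952. So were the Schwann cell sum, at 125414 against 217669 and 206543, and the macrophage sum, at 20934 against 27955 and 27472. The neuronal sum was lowest in P3 replicate 2, at 33570 against 43014.5 and 53196. At P21, replicate 2 had the highest osteoclast sum (5112 against 4753 and 3994) and red cell sum (48093 against 35398 and 18668). No gene of these lists was at 0 in all libraries of an age, and the part of these cells in the shift was not tested.

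Dividing each gene by Ibsp in the same library removed much of that spread. The pooled SD within ages went from 0.49 to 0.21 on the log2 scale for Sost, from 0.39 to 0.22 for Sp7, from 0.42 to 0.25 for Phex and from 0.49 to 0.30 for Dmp1. For Spp1 it went the other way, from 0.21 to 0.58. Across the 15 libraries, the log2 value of each gene correlated with the mean of the other members at r = 0.85 to 0.97, but for Spp1 at r = -0.53. These are descriptions over libraries that share age, so r mostly reflects the ages.

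**Figure D4:**
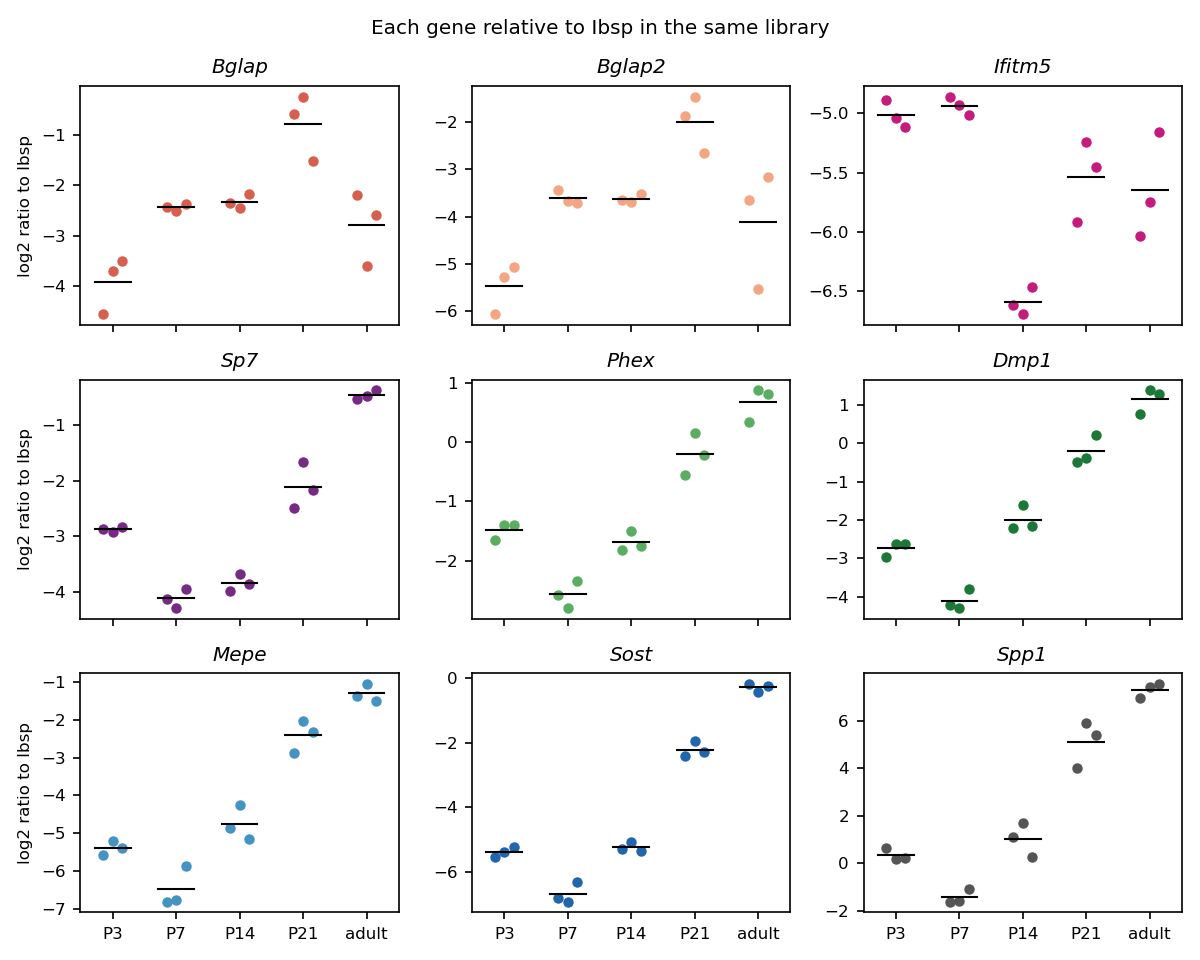
Log2 ratio of each of the other 9 genes to Ibsp in the same library (points, 3 per age, with their mean as a line), on axes that differ between panels. The ratio of Sost goes from a mean of -6.68 at P7 to -0.28 in adults, while that of Bglap moves between -3.93 at P3 and -0.78 at P21.

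Ibsp itself had its highest mean at P7 and its lowest in adults. A gene with a level course would therefore have its lowest ratio to Ibsp at P7 and its highest in adults. The ratios of the osteocyte genes, Sp7, Phex and Spp1 were lowest at P7 and highest in adults. Sost went from a mean log2 ratio of -5.38 at P3 to -6.68 at P7 and -0.28 in adults, and Dmp1 from -2.73 to -4.10 and 1.14. In an ordinary linear model of the log2 ratio, 4 of the other 9 genes changed from P3 to P7: Dmp1 by -1.37 ± 0.25, Sost by -1.30 ± 0.17, Sp7 by -1.24 ± 0.18 and Phex by -1.09 ± 0.20 (adjusted p between 0.00268 and 0.0141), where 6.98% of all genes were called. By themselves, these 4 genes changed at that step by log2 fold changes between -0.50 and -0.22, none called, while Ibsp changed by 0.87, also not called. Limma's moderated fit of the same ratios gave every gene the same standard error, 0.50. It called Bglap, Bglap2, Dmp1 and Spp1 at that step, where 16% of all genes were called. From P3 to adults all 9 ratios were called in the ordinary model, and 8 in limma's, but so were 99.3% and 99.4% of all genes, since Ibsp itself fell by 6.45. Ifitm5 was the only gene whose ratio was lower in adults than at P3, by 0.63 ± 0.22 in the ordinary model (adjusted p = 0.0160), not called by limma (adjusted p = 0.210). The joint test called 9 of 9 and 99.9% of all genes. Bglap and Ibsp kept the same ratio from P7 to P14 within error (0.11 ± 0.42), while the ratio of Ifitm5 changed by -1.65 ± 0.22.

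The rest of the bone pathway was followed through 52 further genes in 8 lists, all of which were tested. From P3 to P7, 11 rose and 15 fell, from P7 to P14 8 rose and 26 fell, from P14 to P21 none rose and 25 fell, from P21 to adults 3 rose and 30 fell, and from P3 to adults 7 rose and 40 fell. Their median log2 fold change was -0.24, -0.57, -0.60, -0.70 and -1.77 in that order, with those of all genes between -0.02 and 0.004. In the same order, 15.4%, 24.3%, 3.29%, 25.4% and 34.4% of all genes tested rose. The shares that fell were 12.8%, 23.8%, 6%, 24.1% and 34.3%. Of 8 bone transcription factors, 5 fell at P14 (limma, against P7), among them Runx2, which acts upstream of Sp7, with Dlx5 and Creb3l1. Their log2 fold changes were -1.63 ± 0.26 for Runx2, -2.23 ± 0.24 for Dlx5 and -0.89 ± 0.13 for Creb3l1. The mean of Runx2 was 5578 ± 1522 (SD, n = 3) at P3, 4602 ± 614.5 at P7, 1496 ± 299 at P14 and 392 ± 42.1 in adults. Msx2 was the 1 factor that rose from P3 to adults, against 7 that fell.

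Among 10 genes for bone matrix proteins and their assembly, none rose and 9 fell from P3 to adults, where 34.4% of all genes tested rose and 34.3% fell. Among those that fell were Serpinh1, a collagen chaperone (log2 fold change -3.30 ± 0.11), and Fkbp10, a prolyl isomerase of the same pathway (-3.25 ± 0.10). Sparc, which codes for osteonectin, rose by 0.61 ± 0.13 from P7 to P14 against 4 that fell, and fell by 2.54 ± 0.13 from P21 to adults. All 4 fibroblast markers fell from P3 to adults as well, with sums of 183698 to 215311 and of 38978 to 43354. The part of fibroblasts in the fall of the matrix genes was not tested. Of 9 mineralization genes, 5 rose from P3 to P7, among them Smpd3 by 0.79 ± 0.27 and Phospho1 by 0.52 ± 0.16, a pair of enzymes that act in turn to free phosphate for mineral from membrane lipids. The phosphate carrier Slc20a1 rose by 0.88 ± 0.11 at that step and by 1.73 ± 0.11 from P3 to adults, while 5 of the 9 fell.

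Hormone and local signals changed too. Pth1r, the receptor for parathyroid hormone, fell by 1.33 ± 0.24 on the log2 scale from P7 to P14. At that step 3 of the 5 hormone and phosphate genes fell and 2 rose, Fgf23 and Fgfr1. Of all genes tested, 23.8% fell and 24.3% rose there. Fgf23 counts were 17.2, 17.4 and 14.1 at P7 and 88.9, 46.9 and 104 at P14. Slc13a5, a citrate carrier of osteoblasts, fell by 3.08 ± 0.41 from P14 to P21. Of the 10 Wnt and BMP genes, 7 fell and 3 rose (Axin2, Lrp6 and Sfrp4) from P3 to adults, where 34.3% of all genes tested fell and 34.4% rose. Wif1, a secreted Wnt inhibitor, fell by 2.85 ± 0.26 from P3 to adults. Tnfsf11 codes for RANKL, the signal of bone cells that drives osteoclast formation, and Tnfrsf11b for its decoy receptor osteoprotegerin. Tnfsf11 fell by 3.03 ± 0.69 from P7 to P14 (mean 165 ± 18.7 to 23.5 ± 15.8), while Tnfrsf11b rose by 1.02 ± 0.12 from P3 to P7 and by 1.07 ± 0.12 to P14 (limma, adjusted p = 0.00260, 6.82e-05 and 6.94e-06). Of 5 receptor genes for sialoprotein and osteopontin, all fell from P3 to adults, with log2 fold changes of -5.37 ± 0.35 for Itgb3 and -1.98 ± 0.13 for Cd44. Pdpn and Irx5, the 2 further osteocyte genes, both fell from P3 to adults, with log2 fold changes of -1.58 ± 0.13 and -1.75 ± 0.14.

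Markers of other cells of skeletal tissue changed as well. The sum over 10 osteoclast markers, the bone-resorbing cells, lay between 94278 and 162334 at P3, 39162 and 59269 at P7, 6894 and 7360 at P14, and 3191 and 3544 in adults. All 10 fell from P7 to P14. At that step 3 of the 10 osteoblast and osteocyte genes fell, as did 23.8% of all genes tested. Bglap and Bglap2 were lower there too, with log2 fold changes of -1.21 and -1.33, but were not called. Calcr was at or under the floor at P14 and Dcstamp and Ocstamp in adults. The sum over 10 cartilage markers lay between 332849 and 394727 at P3 and P7, 247558 and 301364 at P14, 66055 and 81219 at P21 and 23494 and 32242 in adults, and 6 fell from P21 to adults. All 5 red cell markers fell from P21 to adults, with sums of 18668 to 48093 and of 2482 to 4692, and none was called at an earlier step. The part of these cells in the changes of the 10 genes was not tested.

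**Figure D5:**
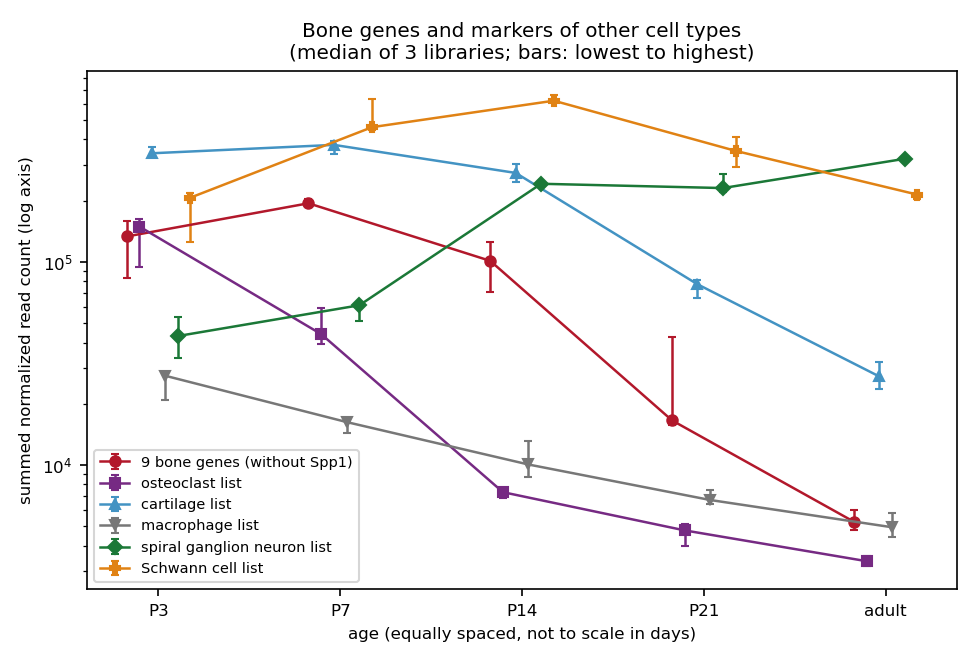
Summed normalized read count of the 9 bone genes without Spp1 and of 5 marker lists at each age (median of 3 libraries, bars from lowest to highest), on a log axis with ages equally spaced. The osteoclast sum is lower at each age than at the one before, the sum of the 9 bone genes is highest at P7 (186097 to 202725) and lower at P14 (71108 to 124780), P21 and in adults, and the neuronal sum is highest in adults.

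The genes whose course was most like the mean of the 10 were ranked by Pearson's r over the 15 libraries among 15175 genes, as a description. They were S1pr3 (r = 0.979), Wisp1 (0.971), Loxl2 (0.968), Ptgis (0.968), Sgca (0.967), Ncf1 (0.962), Cd4 (0.959), Stk17b (0.958), Col22a1 (0.957) and Prss35 (0.953). Wisp1 had means of 11929, 12896, 10316, 2727 and 655 from P3 to adults, and Col22a1 of 7005, 4287, 2494, 499 and 70.6.

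The genes beside the cluster on chromosome 5 were measured as well. Sparcl1, upstream, rose from P3 to P7 by 0.91 and was higher in adults than at P3 by 0.82 on the log2 scale (limma, adjusted p = 6.43e-05 and 8.77e-06). Pkd2, downstream of Spp1, changed by 0.24 from P3 to adults (limma, adjusted p = 0.0430). BC005561, beyond Pkd2, changed by -0.12 from P3 to adults and rose by 1.34 from P21 to adults (limma, adjusted p = 0.808 and 0.0169). Dspp, next to Dmp1 and best known from dentin, had means of 24.8, 68.3, 49.0, 9.01 and 8.90 from P3 to adults, and fell by 2.30 from P14 to P21 (limma, adjusted p = 0.0164). These flanking genes were chosen for their position.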

How the data were processed

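RNA sequencing libraries of mouse auditory nerve were compared, 3 per age at 5 ages. The submitters' processing notes name Partek, TopHat2, DESeq2 and mm10. The annotation, counting settings and use of strand are not given in the sources used here. The signal deposited for each library was taken as reads scaled by the authors with 1 size factor, since 99.94% of positive values came out as whole reads (tolerance 0.1). It is called a normalized read count. Intervals from reads without molecular identifiers, and the floor of 3 reads, describe counting error only.

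The test was limma 3.58.1 (R 4.3.3, trend, robust, two-sided) on log2(value + 1), a scale on which changes of low genes are understated. A gene entered the test if 3 or more libraries reached a value of 10. A single fit held all 15 libraries, with age as its only term and 10 residual degrees of freedom. Adjusted p is Benjamini-Hochberg over all genes tested, and a gene was called, and said to have risen or fallen, at an adjusted p under 0.05. Per the labels each library is 1 mouse. Ratios to Ibsp were fitted likewise without trend, and because limma gave all ratios 1 spread, an ordinary linear model was added after seeing the data. Other settings were edgeR 4.0.16 and DESeq2 1.42.0 on recovered reads, pseudocounts of 0.1 and 10, other filters and scalings, the replicate number as a block, only both ages in the fit, and libraries left out. At P7 against P3, limma called 4703 genes, edgeR 4741 and DESeq2 5625. With only both ages in the fit limma called 6609, and with a P3 or P7 library left out 3080 to 4176. The exact permutation test compared the sum of squares between ages of log2 values over all divisions of the libraries into 5 groups of 3. Fits were also run on simulated counts of independent genes that all had the same spread. Such counts lack the shift between libraries that most of the 10 genes shared, so they do not test the fits for these genes.

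The members and gene lists were chosen with earlier results of these data known. Named genes are all members, up to 3 per bone list by joint adjusted p, and the 10 most correlated genes. Some, but not all, of the genes called against most of their list are named too. Flanking genes were chosen for their position. Exon lengths came from GENCODE M21 and promoters from RefSeq. Descriptions and figures were made with Python 3.11.15.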

Additional observations from a re-analysis of the deposited data

How the results depend on the processing

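Counts of called genes among the 10 kept within 1.5 times the reported count under all alternatives tried, save one. With only both ages in the fit, 7 in place of 4 were called at P14 against P7 and 1 in place of 6 at P21 against P14. Leaving out each library in turn gave 3 to 5 at P7 against P3, 3 to 5 at P14 against P7, 5 to 8 at P21 against P14, 9 to 10 at adult against P21, 9 to 10 at adult against P3 and 9 to 10 jointly. The ratios to Ibsp gave 6 to 8 in adults against P3 and 9 in each such fit jointly. Correlations of deviations between libraries of the same replicate number ran from -0.23 to 0.32. Libraries of different numbers were not compared, so these values cannot decide whether the numbers pair the libraries. The replicate block, possible for ages other than P7, called 5 at P21 against P14, 9 at adult against P21 and 10 at adult against P3, and for ratios to Ibsp 7 in adults against P3 and 8 jointly. Over all genes, P21 against P14 gave 1553 calls, 2519 by DESeq2, 645 with the block, 754 without the 4 libraries low in Eif2s3y (which leaves 1 library at P21) and 137 with only both ages. Adult against P21 gave 8266, 3987 without those 4 libraries and 5211 with only both ages. Over single genes and comparisons, 1237 alternative values kept direction and call, 20 lost the call, 18 gained it and 5 reversed. The reversed ones were never called. They arose when 1 library was left out. At P7 against P3 such fits gave -0.55 to 0.0539 for Mepe and -0.53 to 0.00523 for Phex, positive without P3 replicate 2. Sost ran from -0.00916 (without P14 replicate 3) to 0.31 at P14 against P7, and from -0.64 to 0.0286 at P21 against P14, positive without P21 replicate 2 (0.0166) or 3. The cause was not tested. With a pseudocount of 10, Ifitm5 in adults against P3 was -6.41 in place of -7.08.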
